A study of Mus musculus with 19 samples.

Results

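The comparison described here set the injury site at day 21 after burn/tenotomy against the same site at day 7, inside 3 classes of cells that were defined by their transcripts. Members were cells, chosen by a rule of UMI counts, where a UMI is a molecular tag that counts 1 captured transcript once. The stromal gate took cells with at least 1 UMI of Pdgfra and at most 1 of Ptprc. The myeloid gate required at least 1 UMI of Csf1r, at least 5 of Lyz2 and none of Pdgfra, and the endothelial gate at least 1 UMI each of Cdh5 and Pecam1 with at most 1 of Ptprc. After barcodes with fewer than 500 genes or over 25% mitochondrial UMIs were removed, 18759 cells of the 39541 in the series came from the 4 day 7 and the 4 day 21 libraries. Of these, 5965 fell in the stromal gate, 5321 in the myeloid gate and 1487 in the endothelial gate, out of 11052, 14123 and 3197 in all 19 libraries of the series.

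All 8 libraries came from mice with a scald burn of the back and a transected Achilles tendon, and cells were taken from the tenotomy site by enzymatic digestion. Neither day received the CD47-activating peptide p7N3, and the labels name no vehicle. The paper set p7N3 against PBS-treated mice at 1 week in its single cell data. The labels do not say whether the day 7 libraries are from those mice, so PBS treatment cannot be told apart from time here. The labels mention C57 and LysmCre/Tgfb1fx/fx mice for the series, the second being animals in which a Cre driven by the lysozyme gene removes Tgfb1 from myeloid cells, and assign neither to a library; the study's wild type mice were young adult males of C57BL/6J. In the myeloid gate Tgfb1 measured 246, 247, 222 and 245 CPM in the day 7 libraries and 260.2, 240.5, 259.9 and 304 CPM in the day 21 libraries, where CPM is the usual depth-scaled level, the UMIs of a gene relative to all UMIs of the cells summed. These values overlapped between the days, and genotype was not analysed. The labels do not say whether a library is 1 animal or a pool, so the p-values below measure the spread between libraries. Replicate 4 of each day was deposited later than replicates 1 to 3. Named genes that lost their call with replicates 1 to 3 alone are listed near the end.

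Burn with tendon transection is a model of heterotopic ossification, in which bone forms in soft tissue. Ectopic bone of this kind usually passes through a cartilage stage, laid down by mesenchymal cells of the injured tendon and its surrounding connective tissue. Fibroblasts of a fresh wound proliferate, contract and secrete chemokines, monocytes enter from the blood and become macrophages, and capillaries sprout; later, matrix matures, tissue macrophages return and vessels settle into quiescence. The question put to the data was how far each cell class differed between the first week and the third.

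The libraries held 2903 to 3668 kept cells and 33235893 to 39870492 UMIs at day 7, and 907 to 1956 cells and 11064153 to 29233343 UMIs at day 21. Pairs of libraries shared 0 to 22 cell barcodes. Where a level is written as a mean ± SD below, it is over the 4 libraries of the day. Marker sums are given for each gate as a description. They include Pdgfra, Csf1r, Lyz2, Cdh5 and Pecam1, which the gates themselves required. The summed level of 10 stromal markers in the stromal gate was 49515 to 62638 CPM at day 7 and 71344 to 82021 CPM at day 21. In the myeloid gate 10 myeloid markers summed to 31646 to 41039 and 29476 to 36782 CPM, and in the endothelial gate 10 endothelial markers to 5069 to 5658 and 5871 to 6455 CPM. Of the myeloid sum, Lyz2 alone made up 16670 to 22070 CPM at day 7 and 14360 to 18940 CPM at day 21. Genes of the gates themselves were not tested. As a description, Pdgfra in the stromal gate was 125 to 173 CPM at day 7 and 128 to 184 CPM at day 21, Csf1r in the myeloid gate 505 to 596 and 685 to 862 CPM, and Cdh5 in the endothelial gate 739 to 847 and 792 to 969 CPM.

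Myeloid cells made up a smaller part of the site at day 21 and endothelial cells a larger one. The myeloid gate held 35% ± 6.11 (SD, n = 4) of the kept cells at day 7, between 28 and 40.2%, and 13.4% ± 1.82 (SD, n = 4) at day 21, between 11.4 and 15.1%. Endothelial cells were 5.39% ± 1.38 (SD, n = 4), between 3.89 and 7.23%, and then 15.2% ± 3.55 (SD, n = 4), between 10.7 and 18.2%. In both cases the days did not overlap, and a two-sided exact permutation test of 4 against 4 libraries gave p = 0.0286, the smallest that its 70 regroupings can give, or 0.0429 adjusted over the 3 gates. Stromal cells were 29.9% ± 2.96 (SD, n = 4) at day 7 and 35.8% ± 3.23 (SD, n = 4) at day 21, ranges of 26.4 to 33.6% and 31.5 to 39.2% that overlapped (exact permutation p = 0.0571, the same after adjustment). With every cell thinned to 2000 UMIs before the gates were applied, the shares were 23.6 and 10.5% for myeloid, 3.42 and 10.7% for endothelial and 9.07 and 12.3% for stromal cells. A share falls when other cells become more frequent, so that a loss of myeloid cells and a gain of others cannot be told apart here.

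**Figure D1:**
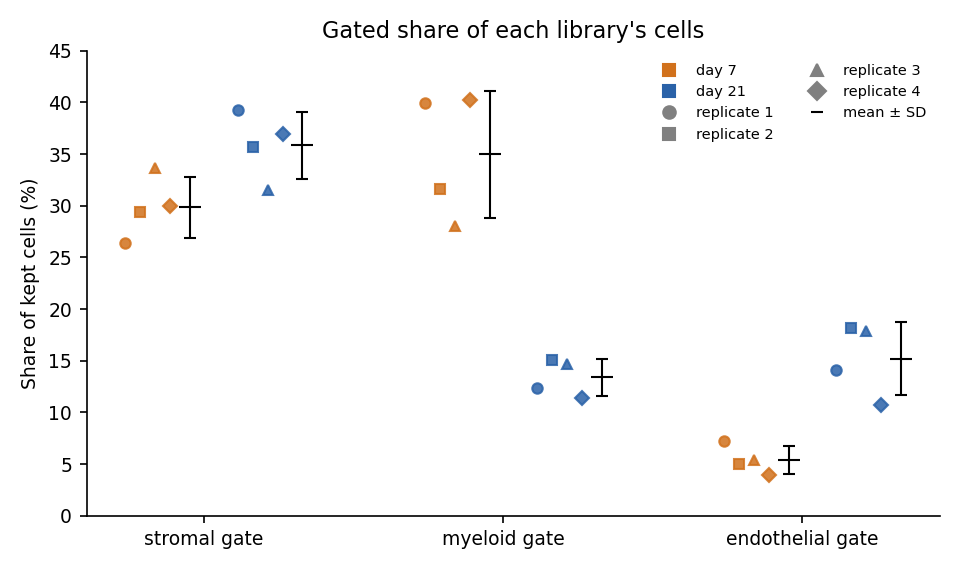
Share of each library's kept cells that passed the stromal, myeloid and endothelial gates, in percent on the vertical axis, with 1 point per library (orange day 7, blue day 21, marker shape for the replicate) and the mean ± SD of 4 libraries beside it. Myeloid shares of 28 to 40.2% at day 7 lie above all day 21 shares, and endothelial shares of 10.7 to 18.2% at day 21 lie above all day 7 shares.

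Stromal cells changed at many genes. Among 13107 genes tested, edgeR's quasi-likelihood test on the summed counts, with Benjamini-Hochberg adjustment over all genes and an adjusted p under 0.05 as the threshold for a call, found 4502 different between the days, or 34.3%. These were 2366 genes higher at day 21 (18.1%) and 2136 lower (16.3%), and for 33.2% of the genes the 4 values of one day did not overlap with the 4 of the other. The median log2 fold change of all genes was 0.01. Every list described below was read against these shares, which are high. A list with a few calls in each direction therefore does not stand out from them. In all 3 gates the lists were chosen with earlier results of these data known, so that their counts are a description and no independent test.

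Genes of cartilage had the largest median change of the stromal lists. Of 20 listed genes 15 could be tested, and 12 were higher at day 21 and none lower, with a median log2 fold change of 2.61. In the fits between gates described below, no cartilage gene tested was called as changing differently in stroma than in another gate. Over all genes 5.54% were called so against myeloid and 8.04% against endothelial cells. No call among 15 genes is near these shares and does not show that the changes were the same. Gene positions are of build GRCm38. The transcript of Col2a1, which encodes the main collagen of cartilage (chr15:97975602-98004695, minus strand), measured 1.69, 18.6, 3.88 and 1.42 CPM in the day 7 libraries and 42.4, 865, 704 and 509 CPM in the day 21 libraries (log2 fold change 6.35, SE 1.05, adjusted p = 0.00171). All 4 day 21 libraries lay above all day 7 libraries, but replicate 1 of day 21 lay far below the other 3 and replicate 2 of day 7 above its own group. Without that day 7 library the log2 fold change was 7.83. Chad, a cartilage leucine-rich protein that binds collagen, was close to 0 in every day 7 library, with 0.514, 0.118, 0.324 and 0.218 CPM in the day 7 libraries and 29.9, 66.2, 56.2 and 46.2 CPM in the day 21 libraries (log2 fold change 7.4, SE 0.36, adjusted p = 3.68e-06). Its 4 day 21 values were 29.9 CPM or more. Ucma, a small secreted protein of the growth cartilage, measured 1.54, 20.3, 3.75 and 5.73 CPM in the day 7 libraries and 35.2, 67, 87.6 and 90.6 CPM in the day 21 libraries (log2 fold change 3.13, SE 0.60, adjusted p = 0.00341), again with the days apart. Col9a3 and Col11a2, chains of the minor cartilage collagens, had log2 fold changes of 3.33 and 3.29, and the link protein gene Hapln1 one of 2.74; without replicate 2 of day 7 the values of Ucma, Col9a3 and Col11a2 were 4.20, 4.63 and 4.21.

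Col2a1 was seen in few stromal cells. At 2000 UMIs per cell, 0.162 to 1.33% of stromal cells at day 7 and 1.66 to 12.35% at day 21 had a UMI of Col2a1. Endothelial cells, which do not make this collagen, had 0 of 728 cells with a UMI at day 7, which allows a share of up to 0.412% of thinned cells. At full depth the day 7 endothelial libraries held up to 0.745 CPM. At day 21 a mean of 4.16% of thinned endothelial cells had a UMI, and myeloid cells had 0.132 and 4.17% on the 2 days. The stromal mean of 7.60% at day 21 is to be read against these shares in classes that should lack the transcript. When gates were set after thinning, Col2a1 kept its call with a log2 fold change of 3.23 and Chad with 9.82, while Ucma (1.87, adjusted p = 0.0921) and Col9a3 (1.00, adjusted p = 0.261) lost theirs in the same edgeR test, and 3 cartilage genes of 12 tested were higher with 1 lower.

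Tendon genes were mostly higher as well, 10 of 15 tested being higher and 1 lower at a median of 1.17. Fibromodulin, Fmod, a proteoglycan that shapes the collagen fibrils of tendon (chr1:134037254-134048277, plus strand), measured 105, 300.1, 152 and 171 CPM in the day 7 libraries and 950.0, 1041, 993 and 1100.2 CPM in the day 21 libraries (log2 fold change 2.49, SE 0.27, adjusted p = 0.000227). Each day 21 library was over 3 times the highest day 7 library, and the 4 day 21 values were close together. Tnmd, tenomodulin, the membrane protein that marks mature tenocytes, measured 157, 361, 255 and 147 CPM in the day 7 libraries and 762, 809, 777 and 1052 CPM in the day 21 libraries (log2 fold change 1.89, SE 0.27, adjusted p = 0.000774). Comp, which bridges collagens in tendon and cartilage, measured 147, 186, 169 and 87.8 CPM in the day 7 libraries and 484, 728, 449 and 782 CPM in the day 21 libraries (log2 fold change 2.05, SE 0.25, adjusted p = 0.000444). Cilp2, a matrix protein of both tissues, was near 1 CPM in each day 7 library and at 58.9 to 113 CPM at day 21 (log2 fold change 6.29, SE 0.25, adjusted p = 1.38e-06). The single list member that fell was tenascin C, Tnc, described below with the myofibroblast genes. A UMI of Fmod was found in 9.15 to 28.1% of thinned stromal cells at day 7 and in 31.5 to 43.8% at day 21, against 2.01 and 8.91% on average in endothelial cells. Under the gates set after thinning 5 of 14 tendon genes were higher and 1 lower.

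**Figure D2:**
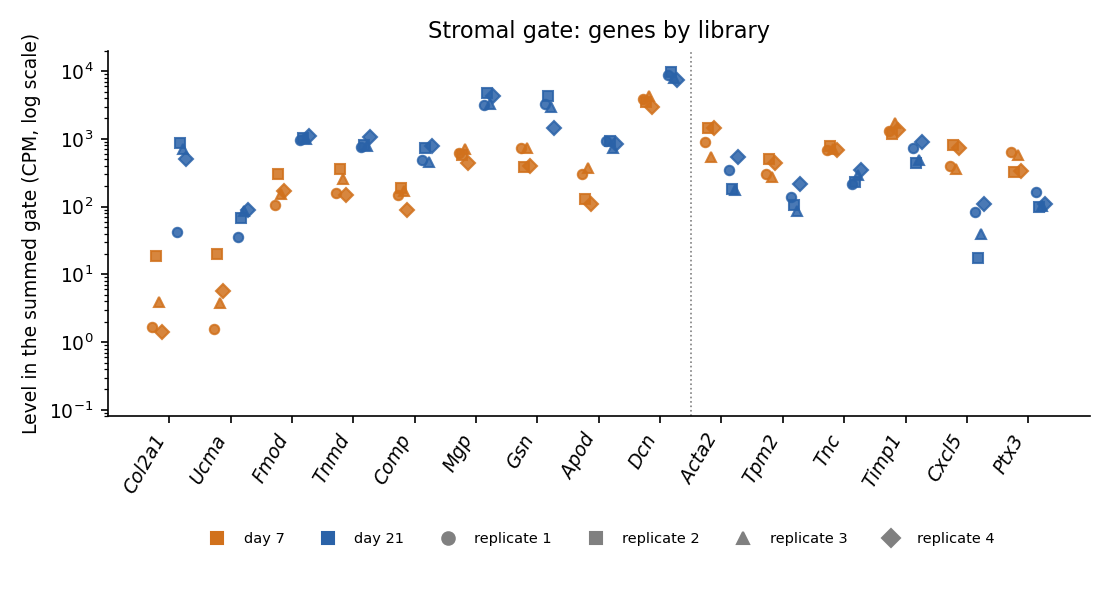
Levels of 15 genes in the summed stromal gate, in CPM on a log axis, with 1 point per library (orange day 7, blue day 21, marker shape for the replicate). The 9 genes left of the dotted line rose and the 6 right of it fell; Col2a1 at day 21 spans 42.4 to 865 CPM while Fmod spans 950.0 to 1100.2 CPM.

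Small leucine-rich proteoglycans, which coat collagen fibrils, had 11 of 13 members higher and none lower at a median of 1.61. Prelp measured 86.3, 84.1, 92.1 and 71.3 CPM in the day 7 libraries and 341, 324, 321 and 316 CPM in the day 21 libraries (log2 fold change 1.96, SE 0.09, adjusted p = 3.68e-06), and the spread within each day was small. Epyc, a proteoglycan of cartilage, had 4.19, 3.24, 3.37 and 2.29 CPM in the day 7 libraries and 19.5, 31.3, 18.1 and 21.9 CPM in the day 21 libraries (log2 fold change 2.8, SE 0.21, adjusted p = 4.70e-05), and Omd a log2 fold change of 1.86. Decorin, Dcn, which most fibroblasts make in bulk, went from 3664 ± 558 to 8478 ± 1018 CPM (log2 fold change 1.21, SE 0.13, adjusted p = 0.000205). Matrix Gla protein, Mgp, an inhibitor of mineralization, measured 614, 574, 699 and 435 CPM in the day 7 libraries and 3203, 4757, 3246 and 4248 CPM in the day 21 libraries (log2 fold change 2.74, SE 0.18, adjusted p = 1.84e-05). Its 4 day 21 values lay far above its 4 day 7 values.

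Collagens moved in several directions. Among 11 fibrillar collagens 5 were higher and 2 lower, with a median of 0.25. Gates set after thinning gave 1 higher and 2 lower of 10. Col1a2, a chain of the collagen of tendon, skin and bone, went from 13924 ± 1292 to 19948 ± 1701 CPM (log2 fold change 0.52), a call that was lost under the gates set after thinning (adjusted p = 0.296, edgeR), and Col27a1 from 104 ± 4.94 to 60.3 ± 13.5 CPM (log2 fold change -0.78). Other collagens were higher for 11 of 17 and lower for 1. The number higher was 5 to 12 with 1 library left out, at 6 without day 21 replicate 3, 7 without day 7 replicate 2 and 5 without day 7 replicate 4, and 5 with gates set after thinning. Col8a1, a network collagen, rose from 176 ± 38 to 587 ± 38.7 CPM (log2 fold change 1.74, SE 0.15, adjusted p = 8.51e-05). Col4a1, Col4a2, Col15a1 and Col18a1 of this list lay at least 4 times higher in the endothelial than in the stromal gate; without genes of that kind the count was 7 higher and 1 lower of 13. Enzymes and chaperones that process collagen went the other way more often, 6 being higher and 10 lower of 24, with 6 lower without day 21 replicate 2 or day 7 replicate 2. Serpinh1, the collagen chaperone of the endoplasmic reticulum, went from 2220.1 ± 259 to 1350.3 ± 119 CPM (log2 fold change -0.72, SE 0.10, adjusted p = 0.000853). Of the secretory pathway and unfolded protein response 13 of 25 members were lower and 2 higher. Without day 21 replicate 1 or 2, 8 were lower. Kdelr2, which returns chaperones to the endoplasmic reticulum, went from 699 ± 72.2 to 392 ± 12.5 CPM (log2 fold change -0.83).

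Transcripts of resting and adventitial fibroblasts, the cells found in uninjured fascia and around vessels, were higher for 19 of 25 and lower for none, at a median of 1.16. Gelsolin, Gsn, which severs actin filaments (chr2:35256380-35307892, plus strand), measured 741, 383, 725 and 395 CPM in the day 7 libraries and 3258, 4297, 2937 and 1439.5 CPM in the day 21 libraries (log2 fold change 2.41, SE 0.34, adjusted p = 0.00073). Replicate 4 of day 21 was the lowest of its day and still above every day 7 library. Apod, a lipid-binding apolipoprotein, measured 299.7, 129, 371 and 110.4 CPM in the day 7 libraries and 941, 928, 726 and 852 CPM in the day 21 libraries (log2 fold change 1.92, SE 0.35, adjusted p = 0.00265). Igfbp6, which binds insulin-like growth factor 2, went from 466 ± 132 to 1419 ± 165 CPM (log2 fold change 1.61, SE 0.20, adjusted p = 0.000447). Myoc, Hmcn2 and Penk, further transcripts of such cells, had log2 fold changes of 2.92, 3.08 and 2.31. For scale, and with no test, the uninjured site at day 0 had 24869 ± 3174 CPM of Gsn, 884 ± 156 CPM of Myoc and 3191 ± 227 CPM of Igfbp6, so that the day 21 levels lay between those of day 7 and day 0. These day 0 values use scaling factors over all 19 libraries, under which Actb in the day 7 and day 21 libraries differed from the scale used here by -1.21 to 5.95%. Fmod at day 0 was 143 ± 123 CPM and Mgp 1286 ± 442 CPM, both below day 21.

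Some contractile and wound fibroblast genes fell. Of 25 activated fibroblast and myofibroblast genes 8 were lower, 1 was higher and 16 were without a call, at a median of -0.47. Smooth muscle actin, Acta2, measured 905, 1454, 549 and 1438 CPM in the day 7 libraries and 344, 180.2, 173 and 535 CPM in the day 21 libraries (log2 fold change -1.81, SE 0.40, adjusted p = 0.00693). The lowest day 7 library, replicate 3, was just above the highest day 21 library, replicate 4. Calponin, Cnn1, and Tpm2, partners of contractile actin, had log2 fold changes of -2.38 and -1.48. Tenascin C, an adhesion-modulating protein of wounds, measured 674, 780.4, 713 and 689.8 CPM in the day 7 libraries and 214, 233, 291 and 348 CPM in the day 21 libraries (log2 fold change -1.4, SE 0.15, adjusted p = 0.000208), with tight values at day 7. Timp1, an inhibitor of matrix metalloproteinases, went from 1390.5 ± 227 to 642 ± 213 CPM (log2 fold change -1.11, SE 0.21, adjusted p = 0.00367), against 38.9 ± 3.66 CPM at day 0. H19, an imprinted noncoding RNA of growing tissue, went from 926 ± 99.2 to 365 ± 132 CPM (log2 fold change -1.35, SE 0.21, adjusted p = 0.00135).

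Inflammatory mediators of the stroma did not share a direction, with 5 of 20 lower and 3 higher. Cxcl5, a chemokine that attracts neutrophils (chr5:90759360-90761624, plus strand), measured 398, 799.8, 365 and 736 CPM in the day 7 libraries and 84.4, 17.5, 38.9 and 110.1 CPM in the day 21 libraries (log2 fold change -3.17, SE 0.50, adjusted p = 0.00138), and the share of thinned stromal cells with a UMI went from 17.2 to 30.5% down to 0.926 to 6.37%. Ptgs2, the inducible cyclooxygenase, went from 84.4 ± 15.6 to 33.3 ± 5.28 CPM (log2 fold change -1.34, SE 0.15, adjusted p = 0.000285). The acute phase protein Ptx3, among the largest changes of the gate, measured 630.1, 319, 576 and 336 CPM in the day 7 libraries and 163, 100.3, 104 and 111 CPM in the day 21 libraries (log2 fold change -1.96, SE 0.25, adjusted p = 0.000515). In the other direction, Ccl11, eotaxin, which attracts eosinophils, measured 47, 15.8, 42.2 and 15.6 CPM in the day 7 libraries and 188, 160.1, 133 and 91.9 CPM in the day 21 libraries (log2 fold change 2.25, SE 0.38, adjusted p = 0.0019), and Cxcl14 went from 392 ± 149 to 1106 ± 286 CPM (log2 fold change 1.5). Day 0 levels were 664 ± 143 CPM for Ccl11 and 1.73 ± 2.01 CPM for Cxcl5. Complement genes were higher for 8 and lower for 3 of 19. C2 and C4b, which the stroma makes, had log2 fold changes of 1.59 and 1.31, while the 3 that fell lay at least 4 times higher in another gate.

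Genes of the transforming growth factor and bone morphogenetic protein family were higher more often than lower. Of 31 members tested 13 were higher and 3 lower. Chordin, Chrd, which binds bone morphogenetic proteins outside the cell, went from 7.06 ± 1.34 to 20.9 ± 1.68 CPM (log2 fold change 1.57, SE 0.14, adjusted p = 9.35e-05), and Gdf10, a ligand of the family, from 22.9 ± 11.6 to 73.1 ± 14.1 CPM (log2 fold change 1.69). Among inhibitors and targets of Wnt signalling 6 of 16 were higher and 2 lower (1 and 1 of 13 with gates set after thinning), and Sfrp4, a secreted Wnt antagonist, measured 286, 141, 232 and 79.2 CPM in the day 7 libraries and 686, 692, 681 and 377 CPM in the day 21 libraries (log2 fold change 1.72, SE 0.35, adjusted p = 0.00478). Its replicate 4 at day 21 was the lowest of that day and above all of day 7. Matricellular proteins were higher for 9 and lower for 2 of 21, among them Thbs1, which binds latent transforming growth factor, with a log2 fold change of 1.49 and Nov, a member of the CCN family, with 2.12.

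Genes of bone and mineralization did not share a direction, with 3 higher, 2 lower and 9 without a call of 14 tested. Runx2, the transcription factor of the osteoblast lineage, measured 30.9, 27.6, 34.3 and 32.2 CPM in the day 7 libraries and 18.8, 11, 15.4 and 18.9 CPM in the day 21 libraries (log2 fold change -0.93, SE 0.15, adjusted p = 0.00141). Every day 21 library was below every day 7 library. Pth1r, the receptor of parathyroid hormone, went from 52.8 ± 5.08 to 33.9 ± 3.99 CPM (log2 fold change -0.64). Ank, a transporter involved in pyrophosphate export, went from 15 ± 2.05 to 32.6 ± 6.84 CPM (log2 fold change 1.1, SE 0.16, adjusted p = 0.000868). Phex and Smpd3, a peptidase and a sphingomyelinase needed for mineralization, rose from low levels, 0.332 ± 0.145 to 1.82 ± 0.531 CPM and 1.18 ± 0.88 to 7.17 ± 2.73 CPM.

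Glycolysis and hypoxia genes were lower for 11 and higher for 3 of 24, with a median of -0.41. The number lower was 7 to 12 with 1 library left out, the fewest without day 21 replicate 3 or day 7 replicates 2 or 4. The enolase Eno1 went from 511 ± 162 to 228 ± 27.6 CPM (log2 fold change -1.17, SE 0.21, adjusted p = 0.00238) and the pyruvate kinase Pkm from 735 ± 207 to 377 ± 82.3 CPM (log2 fold change -0.96). The remaining stromal lists were mixed or near the background. Elastic fibre genes were higher for 5 and lower for 5 of 17, metalloproteinases and their inhibitors higher for 4 and lower for 3 of 19, the insulin-like growth factor system higher for 4 and lower for 1 of 12 and adipocyte genes higher for 3 and lower for 1 of 8. Interferon-stimulated genes were lower for 2 of 29 and higher for none.

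Transcripts of other cells in the stromal gate also differed between the days. Of 8 myeloid markers tested 6 were lower, with a summed level of 620.2 to 826 CPM at day 7 and 238 to 488 CPM at day 21, and of the granulocyte markers 5 of 5, from 76 to 205 CPM down to 6.20 to 24.3 CPM. S100a8, a neutrophil protein, went from 73.2 ± 32.1 to 6.78 ± 4.13 CPM and Tyrobp, a myeloid signalling adaptor, from 97.1 ± 19.2 to 27 ± 5.23 CPM. The markers of Schwann cells were higher for 6 of 7, with sums of 141 to 188 and 301 to 532 CPM, and of 8 mural markers 4 were higher and 1 lower. Of 8 endothelial markers tested 3 were higher and none lower, with sums over 10 of 59 to 146 and 86.1 to 220 CPM. No member of these lists was at 0 in all libraries, and their part in the results was not tested. With genes that lay at least 4 times higher in another gate left out, 4049 of 11859 stromal genes were called, or 34.1%.

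Fewer genes were called in myeloid cells. Of 10329 genes tested 970 passed the same edgeR test, or 9.39%, with 563 higher (5.45%) and 407 lower (3.94%), while 17.7% of genes had values that did not overlap between the days. The gated cells numbered 1028 to 1305 per library at day 7 and 137 to 222 at day 21, and the summed UMIs 5412077 to 9266784 and 1249900 to 2000759.

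Transcripts of tissue-resident macrophages were higher for 14 of 24 and lower for none, at a median of 0.80. Cbr2, a carbonyl reductase found in resident macrophages (chr11:120729489-120732114, minus strand), measured 101, 74.3, 152 and 79.3 CPM in the day 7 libraries and 408, 408, 321 and 283 CPM in the day 21 libraries (log2 fold change 1.81, SE 0.22, adjusted p = 0.0026). No day 21 library came near day 7, and the share of thinned cells with a UMI was 10.4 to 21.9% and then 27 to 41.7%, against means of 0.671 and 0.894% in stromal cells. Mgl2, a galactose-binding lectin, measured 86.2, 37.9, 80 and 37.9 CPM in the day 7 libraries and 224, 224, 176 and 119.7 CPM in the day 21 libraries (log2 fold change 1.62, SE 0.30, adjusted p = 0.0114). Mrc1, the mannose receptor CD206, measured 309.6, 234, 399 and 262 CPM in the day 7 libraries and 707, 574, 572 and 528 CPM in the day 21 libraries (log2 fold change 0.98, SE 0.16, adjusted p = 0.00805), and Cd163, the haemoglobin scavenger receptor, had a log2 fold change of 1.4. Stab1, a scavenger receptor, went from 200.5 ± 24.7 to 331 ± 20.6 CPM (log2 fold change 0.72, SE 0.10, adjusted p = 0.00479). Markers of alternative activation, the state induced by interleukin 4, overlapped with this list and were higher for 7 of 12, none being lower. The eosinophil chemokine Ccl24 measured 39.9, 33.6, 45.5 and 26.2 CPM in the day 7 libraries and 149, 77.7, 123 and 65 CPM in the day 21 libraries (log2 fold change 1.51, SE 0.26, adjusted p = 0.00871), and Retnla, a secreted protein of such macrophages, 184, 97.7, 243 and 158 CPM in the day 7 libraries and 338, 1035, 545 and 267 CPM in the day 21 libraries (log2 fold change 1.68, SE 0.40, adjusted p = 0.0264). At day 0 Retnla was at 5776 ± 1479 CPM and Cbr2 at 569.8 ± 86.4 CPM. Clec10a, another lectin of the list, had a log2 fold change of 0.87. Without 1 library at a time, the number of resident macrophage genes called higher was 6 to 16, with 6 to 9 in all of these fits but those without day 21 replicate 4 or day 7 replicate 3. With gates set after thinning the call of Retnla was lost (log2 fold change 1.15, adjusted p = 0.182, edgeR).

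**Figure D3:**
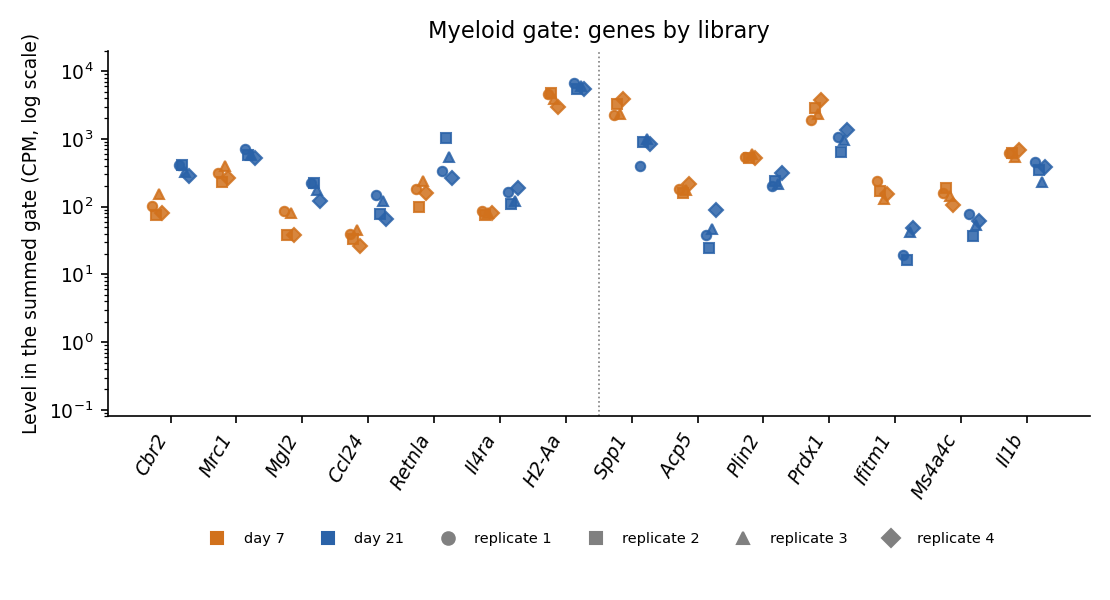
Levels of 14 genes in the summed myeloid gate, in CPM on a log axis, with 1 point per library (orange day 7, blue day 21, marker shape for the replicate). The 7 genes left of the dotted line rose and the 7 right of it fell; Spp1 spans 2219 to 3838 CPM at day 7 and 397 to 985 CPM at day 21.

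Other macrophage programmes fell at single genes rather than as lists. Osteopontin, Spp1, a secreted glycoprotein of wound macrophages (chr5:104435118-104441050, plus strand), measured 2219, 3220.5, 2336 and 3838 CPM in the day 7 libraries and 397, 905, 985 and 855 CPM in the day 21 libraries (log2 fold change -1.89, SE 0.27, adjusted p = 0.00448). At day 7 a UMI of Spp1 was found in 43.1 to 55.7% of thinned myeloid cells, and at day 21 in 15.3 to 24.8%. Outside this gate the mean share of thinned cells with a UMI of Spp1 was lower too. It went from 29.7 to 11.7% in stroma and from 12.1 to 3.69% in endothelium, with no test of these shares. In the summed stromal gate Spp1 was not called, the 2 bone list genes called lower there being Runx2 and Pth1r. In edgeR's fit between gates the change of Spp1 was more negative in myeloid cells than in stroma (difference -1.32, SE 0.29, adjusted p = 0.0267). What part transcripts of other cells had in these shares was not tested. Acp5, the tartrate-resistant acid phosphatase that osteoclasts also use, measured 183, 159, 179 and 218 CPM in the day 7 libraries and 38, 24.5, 47.3 and 88.2 CPM in the day 21 libraries (log2 fold change -1.88, SE 0.29, adjusted p = 0.00607), and Mmp9 had a log2 fold change of -1.52, which was -0.52 and not called with gates set after thinning (adjusted p = 0.255, edgeR). These were the 2 of 12 osteoclast genes that fell, and none rose. Among genes of lipid handling 3 of 21 fell: Spp1, Plin2, which coats lipid droplets, with 543, 521, 599 and 514 CPM in the day 7 libraries and 202, 237, 217 and 316 CPM in the day 21 libraries (log2 fold change -1.16, SE 0.14, adjusted p = 0.00251), and the cholesterol exporter Abcg1, with a log2 fold change of -0.98. Prdx1, a peroxidase induced by oxidative stress, went from 2707 ± 789 to 1010.0 ± 298 CPM (log2 fold change -1.42, SE 0.24, adjusted p = 0.00875).

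Monocyte genes were lower for 6 of 22 and higher for none. Ms4a4c, a membrane protein of monocytes, measured 157, 188, 146 and 104 CPM in the day 7 libraries and 77.3, 36.8, 54.3 and 60.9 CPM in the day 21 libraries (log2 fold change -1.37, SE 0.22, adjusted p = 0.00736), and Clec4e, a receptor for mycobacterial glycolipid, had a log2 fold change of -1.06. Ifitm1, an interferon-inducible membrane protein, measured 235, 169, 130.1 and 155 CPM in the day 7 libraries and 19, 16.3, 41.7 and 48.5 CPM in the day 21 libraries (log2 fold change -2.44, SE 0.31, adjusted p = 0.00293). Of 34 inflammatory mediators 8 were lower and 1 higher, at a median of -0.53. Interleukin 1 beta, Il1b, measured 619, 610.1, 533 and 688 CPM in the day 7 libraries and 458, 344, 230.0 and 388 CPM in the day 21 libraries (log2 fold change -0.78, SE 0.18, adjusted p = 0.0229), and Cxcl2, a neutrophil chemokine, and Nlrp3, the inflammasome sensor, had log2 fold changes of -1.27 and -0.99. The days did not overlap for Il1b. In the fits that each left out 1 library, 2 to 5 monocyte genes were lower, with 2 or 3 without any of day 21 replicates 1 to 3 or day 7 replicates 1 and 2. Of the inflammatory mediators 3 to 8 were lower in these fits, with 3 to 5 without any of day 21 replicates 2 to 4 or day 7 replicates 3 and 4. The other settings gave 3 to 12 monocyte genes and 2 to 15 mediators. Interferon-stimulated genes were lower for 4 of 29, among them Isg15 (log2 fold change -1.0, SE 0.20, adjusted p = 0.0144) and Irf7 (log2 fold change -1.1). Glycolytic genes fell at 6 of 23 members and rose at none. Mif, a cytokine kept on this list, went from 466 ± 87.4 to 257 ± 24.4 CPM. The enolase Eno1 went from 428 ± 73.3 to 259.6 ± 28.9 CPM, a call lost with replicates 1 to 3 alone (adjusted p = 0.055, edgeR). These counts also moved without 1 library. The interferon-stimulated genes lower were 1 without day 21 replicate 1 or 2 or day 7 replicate 2, and 9 without day 7 replicate 4. The glycolytic genes were 2 without day 21 replicate 1 or day 7 replicate 4, and 9 without day 7 replicate 3.

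Some receptor genes rose. Tgfbr2, the ligand-binding receptor for transforming growth factor beta, measured 77.5, 76.5, 102 and 77.9 CPM in the day 7 libraries and 156, 169, 142 and 131 CPM in the day 21 libraries (log2 fold change 0.84, SE 0.12, adjusted p = 0.00504), with the days apart. Smad7, a feedback inhibitor of that receptor that lay at least 4 times higher in another gate, had a log2 fold change of 0.98, while Tgfb1 itself had one of 0.15 (edgeR adjusted p = 0.348) and was not called. Of the 20 members of that family tested here 3 were higher and 2 lower. H2-Aa and H2-Eb1, chains of the class II molecule that presents antigen, had log2 fold changes of 0.57 and 0.66, and were the 2 of 14 presentation genes that rose, with 1 lower. Fcgr3, an Fc receptor, rose from 499.5 ± 77.8 to 754 ± 101 CPM. Efferocytosis and complement C1q genes were higher for 5 of 19, and for 2 to 5 without 1 library, the fewest without day 21 replicate 3 or day 7 replicate 1. Heme and iron genes were higher for 1 and lower for 3 of 14, dendritic cell genes higher for 1 of 13, and secretory pathway genes higher for 3 and lower for 1 of 25. Hspa1a, an inducible heat shock gene, went from 205 ± 47.5 to 433 ± 50.5 CPM (log2 fold change 1.08, SE 0.16, adjusted p = 0.00504).

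Of the 37 called myeloid genes named in the text, 15 lost the call in at least 1 of the 8 fits that each left out 1 library. These were Ccnb1, Cd163, Cenpa, Clec10a, Clec4e, Cxcl2, Fcgr3, H2-Aa, H2-Eb1, Il1b, Irf7, Ltc4s, Mmp9, Nlrp3 and Retnla, with edgeR adjusted p of 0.0501 to 0.129 in those fits and no change of sign. Stromal transcripts inside the myeloid gate summed to 3287 to 6197 CPM over 10 markers at day 7 and 1867 to 14932 CPM at day 21, with 0 of 9 called, and 3 of 5 Schwann cell markers were higher. Several of the largest rises were of genes that other gates held at far higher levels: Aqp1, a water channel of endothelium, went from 22.4 ± 13.6 to 110.3 ± 46.7 CPM in the myeloid gate and averaged 2084 CPM in the endothelial gate, and Timp3 went from 12 ± 2.22 to 62 ± 38.4 CPM with 393 CPM in the endothelial gate. Their part in the list of largest changes was not tested. With such genes left out, 884 of 9222 myeloid genes were called, or 9.59%.

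Endothelial cells, the smallest gate, changed at many genes too. Of 10436 genes 3137 were called, or 30.1%, with 1615 higher (15.5%) and 1522 lower (14.6%), and 30.3% had values that did not overlap.

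Capillary genes were higher at day 21. Of 24 listed and tested 19 were higher and none lower, with a median log2 fold change of 1.44 against 0.00 for all genes. Timp4, a metalloproteinase inhibitor (chr6:115241892-115252205, minus strand), measured 21.5, 5.21, 12.3 and 10.7 CPM in the day 7 libraries and 308, 801, 627 and 216 CPM in the day 21 libraries (log2 fold change 5.24, SE 0.48, adjusted p = 9.24e-05). All day 21 values were at least 10 times the highest day 7 value, and replicate 4 was the lowest of its day. The share of thinned endothelial cells with a UMI was 0.556 to 5.93% at day 7 and 15.3 to 52.7% at day 21, against means of 0.127 and 0.879% in stromal cells. Lpl, lipoprotein lipase, measured 27.4, 10.4, 47.1 and 30.8 CPM in the day 7 libraries and 129.9, 344, 265 and 104 CPM in the day 21 libraries (log2 fold change 2.86, SE 0.43, adjusted p = 0.000775). Aqp7, the glycerol channel, measured 37.9, 12.7, 32.7 and 27 CPM in the day 7 libraries and 142, 253, 219.9 and 79.1 CPM in the day 21 libraries (log2 fold change 2.63, SE 0.37, adjusted p = 0.000546), and Rbp7, a retinol-binding protein, 60.6, 14.9, 37.3 and 50.9 CPM in the day 7 libraries and 218, 254, 236 and 184 CPM in the day 21 libraries (log2 fold change 2.44, SE 0.29, adjusted p = 0.000237). Within each of the 3, day 7 replicate 2 was the lowest library. Tcf15, a transcription factor of muscle and heart capillaries that handles fatty acid uptake genes, went from 91.3 ± 27.4 to 418 ± 153 CPM (log2 fold change 2.2, SE 0.30, adjusted p = 0.000452), and Car4, carbonic anhydrase 4 on the capillary surface, had a log2 fold change of 2.32. Outside the list, Clic5 and Fmo2 were among the largest rises, with 2.87 and 3.76. At day 0 Timp4 was at 1875 ± 185 CPM, Lpl at 785 ± 152 CPM and Tcf15 at 1166 ± 141 CPM, above both later days. Without 1 library at a time 18 to 20 capillary genes were called higher.

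**Figure D4:**
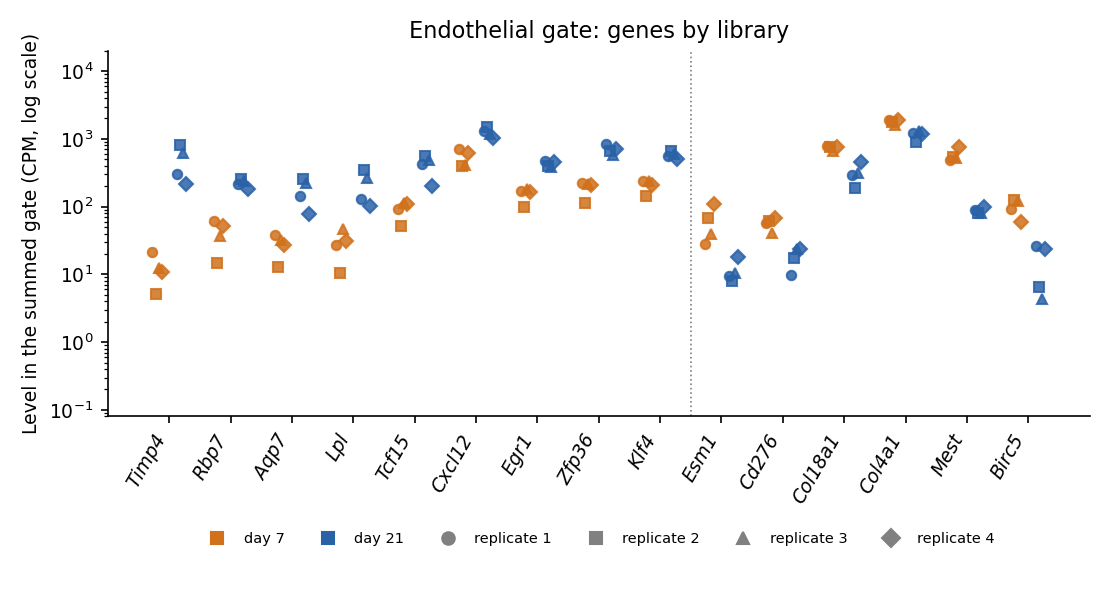
Levels of 15 genes in the summed endothelial gate, in CPM on a log axis, with 1 point per library (orange day 7, blue day 21, marker shape for the replicate). The 9 genes left of the dotted line rose and the 6 right of it fell; Timp4 spans 5.21 to 21.5 CPM at day 7 and 216 to 801 CPM at day 21.

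Genes of arteries, Notch signalling, flow and barrier were also higher more often than lower. Arterial and Notch genes were higher for 12 and lower for 1 of 24, and flow-responsive and barrier genes higher for 10 of 19. The chemokine Cxcl12 measured 699, 404, 409 and 626 CPM in the day 7 libraries and 1292, 1488, 1185 and 1044 CPM in the day 21 libraries (log2 fold change 1.23, SE 0.18, adjusted p = 0.000704). Hes1 and Hey1, transcriptional targets of Notch, had log2 fold changes of 1.05 and 1.06, and Dll4, the Notch ligand of sprouting and arterial endothelium, one of 1.14. Thbd, thrombomodulin, the anticoagulant receptor of the vessel wall, went from 105 ± 20 to 215 ± 12.9 CPM (log2 fold change 1.04, SE 0.13, adjusted p = 0.000269), and Jam2, a junction protein, from 134 ± 31.9 to 304 ± 41.8 CPM (log2 fold change 1.17).

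Genes of sprouting did not move as a group, with 7 higher and 5 lower of 27. Esm1, endocan, the classic secreted product of tip cells, measured 28.3, 68.1, 39 and 109 CPM in the day 7 libraries and 9.42, 7.92, 10.5 and 17.9 CPM in the day 21 libraries (log2 fold change -2.33, SE 0.42, adjusted p = 0.00193). Its values spread widely at day 7 and did not overlap with day 21. Cd276, a surface protein of angiogenic vessels, went from 56.5 ± 11.5 to 18.4 ± 6.43 CPM (log2 fold change -1.63, SE 0.24, adjusted p = 0.000698). Flt1, the decoy receptor for vascular endothelial growth factor, went the other way, from 245 ± 53 to 559.7 ± 54.8 CPM (log2 fold change 1.19, SE 0.14, adjusted p = 0.000238), and Vegfc, the lymphatic growth factor, from 10.6 ± 1.54 to 36.5 ± 8.88 CPM (log2 fold change 1.78). Basement membrane genes were lower for 6 and higher for 2 of 19. Col18a1, whose fragment is endostatin, measured 778, 771, 662 and 766 CPM in the day 7 libraries and 295, 189, 309.8 and 449.6 CPM in the day 21 libraries (log2 fold change -1.25, SE 0.20, adjusted p = 0.000926), Col4a1, the main basement membrane collagen, 1889.7, 1778, 1586 and 1908 CPM in the day 7 libraries and 1232, 913, 1299 and 1173 CPM in the day 21 libraries (log2 fold change -0.63, SE 0.11, adjusted p = 0.00201), and Nid2 had a log2 fold change of -0.98, whereas the laminin chain Lamb2 went from 55 ± 11.4 to 118 ± 17.9 CPM (log2 fold change 1.09, SE 0.15, adjusted p = 0.000556).

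Mest and Chga were among the largest falls. Mest, an imprinted gene active in developing tissue (chr6:30723547-30748465, plus strand), measured 486, 542, 526 and 753 CPM in the day 7 libraries and 89.3, 79.9, 81.3 and 98.2 CPM in the day 21 libraries (log2 fold change -2.72, SE 0.14, adjusted p = 3.11e-06), and the thinned share of cells with a UMI went from 36.7 to 42.5% down to 5.09 to 12%. The fall was not confined to endothelium, since the mean share went from 37.2 to 20.9% in stromal and from 4.73 to 2.13% in myeloid cells. Chga, chromogranin A, a granule protein of neuroendocrine cells (chr12:102554969-102565028, plus strand), measured 43.9, 142, 27.6 and 81.8 CPM in the day 7 libraries and 8.19, 0, 3.08 and 4.58 CPM in the day 21 libraries (log2 fold change -4.04, SE 0.62, adjusted p = 0.000817); without day 21 replicate 1 the log2 fold change was -4.65. At 2000 UMIs per cell it was seen in 3.52 to 6.11% of endothelial cells at day 7, in at most 0.926% at day 21, and in at most 0.0973% of the cells of a library in the other gates. It was listed at 0 in every day 0 library of this gate.

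Bone morphogenetic protein signalling components rose in part, 8 of 24 members of the family being higher and 2 lower. Acvrl1, the endothelial receptor ALK1, went from 80.9 ± 8.78 to 161 ± 20.1 CPM (log2 fold change 0.99, SE 0.12, adjusted p = 0.000224), its target Id1 from 284 ± 99.4 to 587 ± 105 CPM (log2 fold change 1.04) and Smad7 from 30.7 ± 12.9 to 82.1 ± 12.6 CPM (log2 fold change 1.42). Adhesion molecules of veins were higher for 6 and lower for 1 of 21. P-selectin, Selp, which captures leukocytes, had a log2 fold change of 1.12 but lost its call in 4 of the 8 fits without a library (edgeR adjusted p of 0.0542 to 0.0678), and Icam1 one of 0.86. Interferon-stimulated genes were higher for 7 and lower for none of 27, among them Irf1, with 52.6, 33.5, 61.5 and 77.3 CPM in the day 7 libraries and 157, 183, 137 and 132 CPM in the day 21 libraries (log2 fold change 1.46, SE 0.20, adjusted p = 0.000527), Rsad2 (log2 fold change 0.97) and Ifit3 (0.96). The number higher was 4 to 8 without 1 library, the fewest without day 21 replicate 2 or day 7 replicate 3. Glycolysis genes were higher for 2 and lower for 6 of 23, secretory pathway genes higher for 3 and lower for 7 of 25 (4 to 10 without 1 library, the fewest without day 21 replicate 1) and lymphatic genes higher for 2 and lower for 1 of 11.

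Immediate early genes, many of which encode transcription factors, are switched on within minutes by growth factors, flow, stress or tissue dissociation. They rose together in endothelium. Of 20 tested 19 were higher and none lower, with a median of 1.07. Zfp36, which destabilizes inflammatory messages (chr7:28376784-28380253, minus strand), measured 227, 112, 219 and 208 CPM in the day 7 libraries and 853, 666, 575 and 708 CPM in the day 21 libraries (log2 fold change 1.87, SE 0.20, adjusted p = 0.000136). Egr1 measured 172, 100.2, 182 and 165 CPM in the day 7 libraries and 468, 399.9, 380.0 and 452 CPM in the day 21 libraries (log2 fold change 1.46, SE 0.16, adjusted p = 0.000157), and Klf4, also a flow-induced factor, 239, 142, 236 and 208 CPM in the day 7 libraries and 556, 661, 597 and 499.5 CPM in the day 21 libraries (log2 fold change 1.49, SE 0.15, adjusted p = 0.000126). The 2 days were apart for each of these. Nr4a1 and Atf3 had log2 fold changes of 1.52 and 1.5. In the stromal gate 4 of 21 were higher and 3 lower, with a median of -0.03, and in the myeloid gate 3 of 20 were higher and none lower, with a median of 0.25.

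Transcripts of other cells in the endothelial sums also differed between the days, in both directions. Of 9 stromal markers tested 9 were higher, and the sum over 10 was 3052 to 4227 CPM at day 7 and 3645 to 15523 CPM at day 21. Of the tenocyte markers 4 of 5, of the chondrocyte markers 2 of 2 and of the mural markers 6 of 8 were higher, with sums of 32.9 to 135 and 145 to 802 CPM, 4.61 to 18.3 and 51.2 to 335 CPM, and 418 to 834 and 726 to 1286 CPM. Schwann cell markers were higher for 2 of 2, with sums of 54.7 to 67.3 and 104 to 225 CPM. Myeloid markers were lower for 6 of 6, with sums of 417 to 773 and 112 to 266 CPM. Granulocyte markers were lower for 2 of 2, with sums of 60.5 to 160 and 3.74 to 13.9 CPM. The 1 mast cell marker tested was lower, with sums of 25.6 to 45.3 and 16.7 to 17.9 CPM. Col2a1 in this gate had 0 to 0.745 CPM at day 7 and 26.5 to 278 CPM at day 21, and Fmod went from 13.8 ± 7.96 to 150.1 ± 74.2 CPM; both lay far higher in the stromal gate, at 264 and 593 CPM over the 8 libraries. Tyrobp, from 92.8 ± 15.3 to 14.1 ± 4.09 CPM, lay at 3077 CPM in the myeloid gate. No marker on the stromal, mural or myeloid list was at 0 throughout, and their part in the results was not tested. With such genes left out 2844 of 9811 endothelial genes were called, or 29.0%. The list of antigen presentation genes, 7 higher and 5 lower of 14, became 7 higher and 1 lower of 10 once Cd74, H2-Aa, H2-Ab1 and H2-Eb1, at least 4 times higher in another gate, were left out.

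Cell cycle genes fell in stroma and endothelium. Of 50 genes, 46 were lower in the stromal gate and 47 in the endothelial gate, and none was higher in either, at medians of -1.33 and -1.84. In the myeloid gate 7 of 46 were lower and 1 higher, at a median of -0.25. The list spans the licensing and synthesis of DNA (the minichromosome maintenance and nucleotide genes) and mitosis (cyclins, kinases and kinetochore genes). Promoters of the mitotic genes are known for a CCAAT box, bound by the factor NF-Y, and for the cell cycle genes homology region. That region is read by the DREAM complex, which represses those genes in resting cells. The homology region was searched for as TTTGAA, its first form, and with the letters TTTAAA, its second form. To show them, 4 promoters from RefSeq are given on the strand of the gene, from 250 bases before to 50 bases after the transcript's start in build GRCm38.p6, with these motifs on either strand in capitals. They are Cdc20 at chr4:118437294-118437593 on the minus strand, Ccnb1 at chr13:100786437-100786736 on the minus strand, Plk1 at chr7:122159185-122159484 on the plus strand and Uhrf1 at chr17:56303087-56303386 on the plus strand.
Cdc20: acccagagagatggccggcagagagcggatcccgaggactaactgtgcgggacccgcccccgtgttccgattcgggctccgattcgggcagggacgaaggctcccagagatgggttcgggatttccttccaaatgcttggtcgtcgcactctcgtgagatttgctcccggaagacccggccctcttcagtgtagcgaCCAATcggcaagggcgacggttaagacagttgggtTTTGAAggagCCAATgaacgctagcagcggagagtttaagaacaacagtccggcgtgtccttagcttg
Ccnb1: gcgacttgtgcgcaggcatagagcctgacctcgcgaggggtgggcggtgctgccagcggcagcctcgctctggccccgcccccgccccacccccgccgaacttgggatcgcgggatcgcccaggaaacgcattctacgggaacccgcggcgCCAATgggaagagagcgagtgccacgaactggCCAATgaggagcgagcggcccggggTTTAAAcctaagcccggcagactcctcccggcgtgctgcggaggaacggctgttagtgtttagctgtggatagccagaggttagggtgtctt
Plk1: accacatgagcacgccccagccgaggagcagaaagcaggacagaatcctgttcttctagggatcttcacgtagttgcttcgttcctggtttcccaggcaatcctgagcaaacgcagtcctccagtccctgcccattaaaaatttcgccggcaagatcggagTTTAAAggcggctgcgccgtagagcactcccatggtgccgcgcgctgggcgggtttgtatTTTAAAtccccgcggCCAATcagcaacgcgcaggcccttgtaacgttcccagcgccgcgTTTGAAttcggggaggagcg
Uhrf1: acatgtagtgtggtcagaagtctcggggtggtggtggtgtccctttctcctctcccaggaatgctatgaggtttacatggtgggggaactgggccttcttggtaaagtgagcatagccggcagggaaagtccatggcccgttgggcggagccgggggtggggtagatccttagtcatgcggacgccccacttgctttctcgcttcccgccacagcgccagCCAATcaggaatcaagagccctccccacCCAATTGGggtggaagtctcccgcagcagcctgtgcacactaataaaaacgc
Cdc20 held 2 CCAAT boxes and 1 homology region of the first form, and Ccnb1 held 2 CCAAT boxes and 1 homology region of the second form. Plk1 held 1 CCAAT box with 1 homology region of the first form and 2 of the second. Uhrf1 held 3 CCAAT boxes, of which a pair overlap on opposite strands, and no homology region in this window. Over the list, 41 of 50 genes matched 44 promoters in the RefSeq table. The CCAAT box on either strand was present in 86.4% of these, against 37.4% of all 32851 promoters of the same length, the first form of the homology region in 50% against 17.9% and the second in 25% against 13.2%. The CCAAT box together with either form was found in 61.4% against 10.7%. These matches describe letters in a window and not binding.

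Cdc20, the activator of the anaphase-promoting complex, measured 26.6, 57.4, 33.1 and 53.9 CPM in the day 7 libraries and 14.2, 7.02, 4.63 and 17.6 CPM in the day 21 libraries in stroma (log2 fold change -1.87, SE 0.36, adjusted p = 0.00351) and 56.3, 59.6, 59.8 and 31.4 CPM in the day 7 libraries and 16.8, 9.24, 2.46 and 7.49 CPM in the day 21 libraries in endothelium (log2 fold change -2.47, SE 0.34, adjusted p = 0.000499). Plk1, the mitotic kinase, measured 12.6, 23.6, 11.5 and 22.2 CPM in the day 7 libraries and 3.98, 4.41, 1.47 and 6.55 CPM in the day 21 libraries in stroma (log2 fold change -1.99, SE 0.35, adjusted p = 0.00225), and 19, 26.1, 24.6 and 13.8 CPM in the day 7 libraries and 6.96, 0, 0.616 and 2.91 CPM in the day 21 libraries in endothelium (log2 fold change -2.77, SE 0.48, adjusted p = 0.00157). In neither gate did the days overlap for these genes; in endothelium Plk1 had a log2 fold change of -3.83 without day 21 replicate 1. Uhrf1 and Hells, which keep up DNA methylation at replication, had log2 fold changes of -2.26 and -2.5 in stroma. Cyclin B1, Ccnb1, had -2.55 in endothelium and -1.9 in the myeloid gate (-2.63 without day 21 replicate 2), where Cdc20 had -1.44; in myeloid cells both lay at least 4 times below another gate. Birc5, survivin, measured 93.6, 126, 123 and 58.5 CPM in the day 7 libraries and 26.2, 6.6, 4.31 and 23.7 CPM in the day 21 libraries in endothelium (log2 fold change -2.61, SE 0.39, adjusted p = 0.000709). Day 0 levels in endothelium were 0.581 ± 0.388 CPM for Birc5 and 3.29 ± 1.83 CPM for Cdc20.

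Proliferating cells made up a smaller share of stroma and endothelium at day 21. Cells with 2 or more UMIs over Mki67, Top2a, Cdk1 and Birc5, which are members of the list, were 14.5 to 27.5% of stromal cells at day 7 and 2.01 to 8.86% at day 21, 18.6 to 22.1% and 1.21 to 8.61% of endothelial cells, and 2.39 to 3.31% and 2.16 to 4.95% of myeloid cells. With those cells removed, 29 of 39 list genes were still lower in stroma and 9 of 20 in endothelium. The shares were taken without thinning and so can depend on depth per cell. Median UMIs per cell were 8120 to 11322 at day 7 and 6398 to 9260.5 at day 21 in endothelium. In myeloid cells they were 4554 to 6129 and 7368 to 8600, and in stroma 11062.5 to 19454 and 12734 to 15561.5. The part of depth in these shares was not tested. With 1 library left out at a time, 31 to 50 of the list were lower in stroma, the fewest without day 21 replicate 2, and 44 to 48 in endothelium. In the myeloid gate the count was 1 to 6, with 1 to 3 in all of these fits but those without day 21 replicate 2 or 4. In a fit of both gates with library as a block, which tests the difference between their changes, the change was more positive in myeloid than in stromal cells for 16 of 50 genes and more negative for none, at a median difference of 1.05. Against endothelial cells it was more positive for 22 of 50 and more negative for none, at a median of 1.31.

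**Figure D5:**
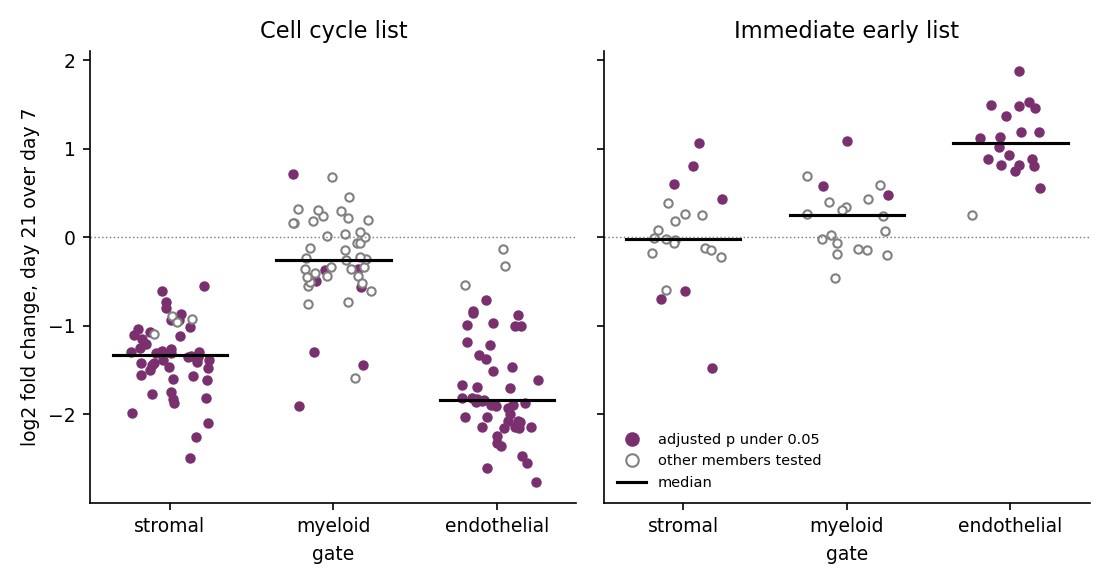
Log2 fold change of day 21 over day 7 for each tested member of the cell cycle list (left) and the immediate early list (right) in the 3 gates, filled where the adjusted p was under 0.05 in that gate, with a black line at the list's median. Cell cycle medians lie at -1.33, -0.25 and -1.84 in stromal, myeloid and endothelial cells, and immediate early medians at -0.03, 0.25 and 1.07.

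The same kind of fit gave the genes whose change differed between classes over all genes tested. Between stromal and myeloid cells they were 729 of 13148, or 5.54%, the change being more positive in myeloid cells for 3.13% and more negative for 2.41%. Between stromal and endothelial cells they were 985 of 12251, or 8.04%, with 3.49% more positive and 4.55% more negative in endothelium. Between endothelial and myeloid cells they were 893 of 11178, or 7.99%, with 4.12% more positive and 3.87% more negative in myeloid cells. The change of immediate early genes in endothelium was more positive than in stroma for 15 of 21 genes, at a median difference of 1.11, and more negative in myeloid cells than in endothelium for 15 of 21, at -0.98. Zfp36 differed by 1.70 (SE 0.20, adjusted p = 0.00119) between endothelium and stroma on the log2 scale. Basement membrane genes were more negative in endothelium than in stroma for 8 of 19 and more positive for none. For cartilage genes the change differed from that in stroma for 0 of 15 in myeloid cells and 0 of 15 in endothelium, near the shares over all genes. The median differences were 0.07 and 1.44. Tendon genes were more negative in myeloid than in stromal cells for 1 of 15, at -0.51. In endothelium 1 of 14 was more positive than in stroma, at 0.78. Small leucine-rich proteoglycans differed for 0 of 13 in myeloid cells, at -0.66, and were more positive for 2 of 13 in endothelium, at 0.83. Interferon-stimulated genes were more negative in myeloid than in endothelial cells for 10 of 31, at a median difference of -0.66.

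Some genes were called in opposite directions in 2 classes, and each of these also had a called difference. Between stromal and myeloid cells they were 32 of 517 genes called in both gates, out of 10056 tested in both. Between stromal and endothelial cells they were 86 of 1681, out of 10244 tested. Between endothelial and myeloid cells they were 31 of 434, out of 9432 tested. The remaining 485, 1595 and 403 genes called in both gates moved in the same direction. Acp5 fell in myeloid cells, as above, and rose in stroma from 34.4 ± 6.3 to 68.9 ± 14.7 CPM (difference -3.00, SE 0.27, adjusted p = 0.000854). Il4ra, the receptor for interleukins 4 and 13, rose in myeloid cells from 80.5 ± 3.54 to 146 ± 35.1 CPM and fell in stroma from 93.2 ± 17.2 to 41.7 ± 7.66 CPM (difference 1.96, SE 0.16, adjusted p = 0.000854). Fabp5, a fatty acid binding protein, fell in stroma from 403 ± 137 to 91.4 ± 26.7 CPM and rose in endothelium from 423 ± 117 to 698 ± 102 CPM (difference 2.84, SE 0.38, adjusted p = 0.0017). Col18a1 and Col4a1 fell in endothelium and rose in stroma, with differences of -2.0 and -1.96. In stroma Col18a1 went from 57.4 ± 17.7 to 88.1 ± 15.4 CPM, a call that 5 of the 8 fits without a library lost. Col4a1 went there from 88.6 ± 36.1 to 205 ± 19 CPM. The endothelial gate at day 7 averaged 744 CPM of Col18a1 and 1791 CPM of Col4a1, so that the stromal values were small beside these. The part of endothelial transcripts in the stromal rise was not tested. Ltc4s, leukotriene C4 synthase, fell in endothelium from 50.7 ± 8.38 to 9.2 ± 1.14 CPM and rose in myeloid cells from 47.9 ± 17.3 to 110.4 ± 36.7 CPM (difference 3.63, SE 0.35, adjusted p = 0.000699). Cenpa, the histone of the centromere, fell in stroma and endothelium and was higher in myeloid cells, from 50 ± 7.11 to 81.8 ± 24.7 CPM, a call that 7 of those 8 fits lost.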

How the data were processed

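Single cells of the tenotomy site were captured with the 10x 3′ version 2 kit. The authors aligned the reads with Cell Ranger and deposited matrices of UMI counts, whole numbers over 27998 mouse genes and not normalized. Those of day 7 and day 21 held 932 to 3786 barcodes. The matrix of day 0 replicate 1 held 737280, of which 1003 were kept here. The mm10 build is named for the matrices, while the processing notes of replicates 1 to 3 also list a human build. The labels gave the day and replicate of each library, and no sequencing batch. Barcodes under 500 genes or over 25% of mitochondrial UMIs were dropped, gates were applied to counts, and UMIs were summed per library and gate. The sums were tested with edgeR 4.0.16 (TMM scaling, filterByExpr, quasi-likelihood test, no covariate) in R 4.3.3, with interaction fits that held library as a block, after a test on simulated data. Each SE is the absolute log2 fold change divided by the square root of that test's F statistic. It therefore restates the test and is no separate measure of precision. Doublets were not removed in the main counts; an alternative removed the top 3.9% of Scrublet scores. Other alternatives were DESeq2 1.42.0, RLE factors, filters, thinned gates and leaving out libraries. Shares of cells with a UMI were taken after thinning to 2000 UMIs per cell. These were compared by exact permutation only for the gates. Intervals and limits from counts cover counting error only. Gene positions come from GENCODE vM21. Members and gene lists were chosen with earlier results of these data known. Genes could be named as members of a list (largest called change first, up to 6), as 1 of the 10 largest non-overlapping changes per direction at 50 CPM or more, as 1 of the 5 largest opposite changes between gates, or as cell markers or Tgfb1. Replicate numbers did not pair the libraries. The authors' test over single cells was not used here. The p7N3 libraries entered only the fit of all 5 groups, the cell counts of the series and the scaling over all 19 libraries.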

Additional observations from a re-analysis of the deposited data

Results flagged for a closer look

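In 18 of the 306 groups of 4 libraries looked at, 1 library lay far from the other 3 by Dixon's criterion, which chance alone does in about 1 in 20 groups. In the stromal gate at day 7 it was replicate 2 for 3 cartilage collagens, at 18.6 CPM for Col2a1 (the others 1.42 to 3.88), 19.4 CPM for Col9a3 (1.47 to 4.14) and 9.12 CPM for Col11a2 (1.69 to 2.59). At day 21 replicate 4 was highest for Tnmd, at 1051.5 CPM, and lowest for Sfrp4, at 377 CPM, and C4b, at 122 CPM, while replicate 1 was highest for Cxcl14, at 1532 CPM, and Ptx3, at 163 CPM.

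In the myeloid gate day 7 replicate 3 was highest for Tgfbr2, at 102 CPM against 76.5 to 77.9 CPM, and lowest for Tgfb1, at 222 CPM against 245 to 247 CPM. In the endothelial gate day 7 replicate 2 was lowest for Fmo2, at 0.745 CPM, and Zfp36, at 112 CPM, and replicate 1 was highest for Jam2, at 182 CPM, Selp, at 234 CPM, and Tyrobp, at 116 CPM. Col18a1 was lowest in replicate 3, at 662 CPM, and Cdc20 in replicate 4, at 31.4 CPM. At day 21 the endothelial Col2a1 value of replicate 2 was 278 CPM against 26.5 to 31.1 CPM in the others.

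These 15 results were genes called in opposite directions in a pair of gates, with a called difference of the log2 fold changes in edgeR's interaction test. Myeloid minus stromal, the difference was -3.00 for Acp5, 2.08 for Cenpa, 1.96 for Il4ra, -0.93 for Sat1 and -0.90 for Bri3. Endothelial minus stromal it was 2.84 for Fabp5, -2.52 for Col15a1, -2.45 for Ctla2a, -2.0 for Col18a1 and -1.96 for Col4a1. Myeloid minus endothelial it was 3.63 for Ltc4s, 2.30 for Cenpa, 2.22 for H2-Aa, 1.90 for H2-Eb1 and 1.15 for Cmtm3. H2-Aa and H2-Eb1 averaged 87.6 and 65.3 CPM in the endothelial gate at day 7 and 3998 and 3033 CPM in the myeloid gate, so that the endothelial values of these class II genes were small beside those of myeloid cells. Likewise Col15a1, Ctla2a, Col18a1 and Col4a1 averaged 36.3, 48.7, 57.4 and 88.6 CPM in the stromal gate at day 7. In the endothelial gate they averaged 536, 2171, 744 and 1791 CPM.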

How the results depend on the processing

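Gates set after thinning to 2000 UMIs gave 2067 called stromal genes in place of 4502, with fewer cells in the gate. In the myeloid gate, replicates 1 to 3 alone gave 386 calls in place of 970, one fit of all 5 groups 1509, and leaving out 1 library 427 to 942. The stromal and myeloid difference was called for 110 genes with replicates 1 to 3 and for 204 to 806 without 1 library, the stromal and endothelial difference for 486 to 926 and the endothelial and myeloid difference for 437 to 860; the cause was not tested, beyond the smaller number of libraries. The share of myeloid cells differed by -19.2 percentage points with replicates 1 to 3 and by -23.9 to -19.8 without 1 library, and the endothelial share by 10.8 and by 8.81 to 11.3; a permutation test over 3 against 3 or 3 against 4 libraries cannot pass the threshold after adjustment. A replicate block was not supported by the check of same-numbered libraries and gave 4013, 749 and 2634 calls in the stromal, myeloid and endothelial gates, and 5 named myeloid genes lost their call. Without 1 library at a time, 2 of 64 called stromal genes named, 15 of 37 myeloid and 1 of 48 endothelial lost the call, and none changed sign there or in the other settings. With replicates 1 to 3 alone 12 named myeloid genes lost it. These were Ccnb1, Cenpa, Clec10a, Clec4e, Cxcl2, Eno1, Fcgr3, H2-Aa, Il1b, Ltc4s, Mmp9 and Nlrp3, with edgeR adjusted p of 0.0507 to 0.214. In the same fit the call was lost for Col18a1 in stroma (log2 fold change 0.35, adjusted p = 0.189). Selp in endothelium lost it as well (0.74, adjusted p = 0.116). Thinned gates kept the call and moved the log2 fold change of other stromal genes, both falls and rises. It became -2.47 for Acta2, -3.22 for Cnn1, -2.35 for Cxcl5, -2.74 for Cdc20, -3.35 for Uhrf1 and -3.11 for Hells. Among rises it became 3.23 for Col2a1, 5.60 for Cilp2, 1.96 for Fmod, 1.64 for Comp and 1.59 for Tnmd. These rises were smaller than in the main fit, while that of Chad was larger at 9.82. The same gates ended the myeloid calls of Mmp9 (-0.52, adjusted p = 0.255, edgeR) and Retnla (1.15, adjusted p = 0.182), and the stromal call of Col18a1 (0.61, adjusted p = 0.134). DESeq2 called 4268, 1067 and 2617 genes. Leaving out genes that lay at least 4 times higher in another gate, an alternative chosen after seeing the data, gave 4049, 884 and 2844 calls.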

Other observations

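Chga, the transcript of a granule protein, was read in the endothelial gate at day 7 from 716 UMIs and at day 21 from 36 UMIs, and was under 1 CPM on average in the other gates. At day 3 it averaged 2.63 CPM over 3 libraries, between 0 and 6.58 CPM, and at day 0 all 4 libraries were at 0.

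Because Mest and H19 are imprinted, a set of imprinted genes that includes both was looked at after these values had been seen. In the stromal gate 1 of 15 tested was higher and 2 lower by edgeR's test. In the myeloid gate 0 of 13 were higher and 2 lower, and in the endothelial gate 4 of 13 higher and 2 lower. The lower genes of the stromal and myeloid gates were Mest and H19 themselves. No other gene of the set was lower there. In endothelium Mest and Sgce were lower, while Igf2, Cdkn1c, Meg3 and Igf2r were higher. Leaving out Mest and H19, the calls in endothelium still went in both directions.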
